A study of Mus musculus with 8 samples.

Results

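Cct5 was knocked down in mouse E14 embryonic stem cells, an established pluripotent line, and the transcripts of these cells were set against those of an empty-vector control. The comparison takes the 2 libraries of the knockdown (Cct5 KD) and the 2 of its control (Cct5 KD Ctr) out of 8 in the series, and all 21039 gene IDs of the table that holds these 4 libraries, out of 22040 IDs in the series' tables. Both groups carried the pLKO-Tet-On-Puro lentiviral vector, with a doxycycline-inducible short hairpin RNA (shRNA) against Cct5 in the knockdown and without a hairpin in the control. Cells of both groups went through 14 days of puromycin (0.5 µg/ml) and 2 days of doxycycline (2 µg/ml) in medium with serum and LIF. The hairpin's sequence, the number of clones in each line and whether the 2 libraries of a group came from separate cultures are not given in these sources, so p-values measure only the spread between libraries. The series asks whether CCT5 and CCT7 hold mouse stem cells back from the passage out of pluripotency into totipotency.

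CCT5 is a subunit of CCT, also called TRiC, a double-ring chaperonin that takes up newly made actin, tubulin and other cytosolic proteins and folds them in its closed chamber. A ring holds a fixed order of different subunits, so loss of one limits the assembly of the whole complex. Mouse embryonic stem cells keep themselves pluripotent through a network around Oct4 (Pou5f1), Sox2 and Nanog. A few cells in such cultures pass at any time through a state with transcripts of the 2-cell embryo, such as the Zscan4 cluster, and are called 2-cell-like.

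Values are FPKM, read fragments set against transcript length and library size, as deposited by the authors. The Cct5 KD values stood in a fixed relation to those of the Cct7 knockdown (Cct7 KD), which lie in another table, and this touches every result below. In the 19896 genes listed in both tables, the ratio of Cct5 KD to the like-numbered Cct7 KD library was most often 9 to 8. It was met within a relative error of 1e-06 by 449 genes in replicate 1 and by 427 in replicate 2. Among 13650 genes of at least 1 FPKM in Cct7 KD, 9 lay below this ratio in each replicate. When Cct5 KD 1 was set against Cct7 KD 2 instead, 776 (5.68%) lay below. Just above the ratio, 95 and 88 genes lay within 1%, and 0 lay within 1% under it. The plot of ratios shows this edge.

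**Figure D1:**
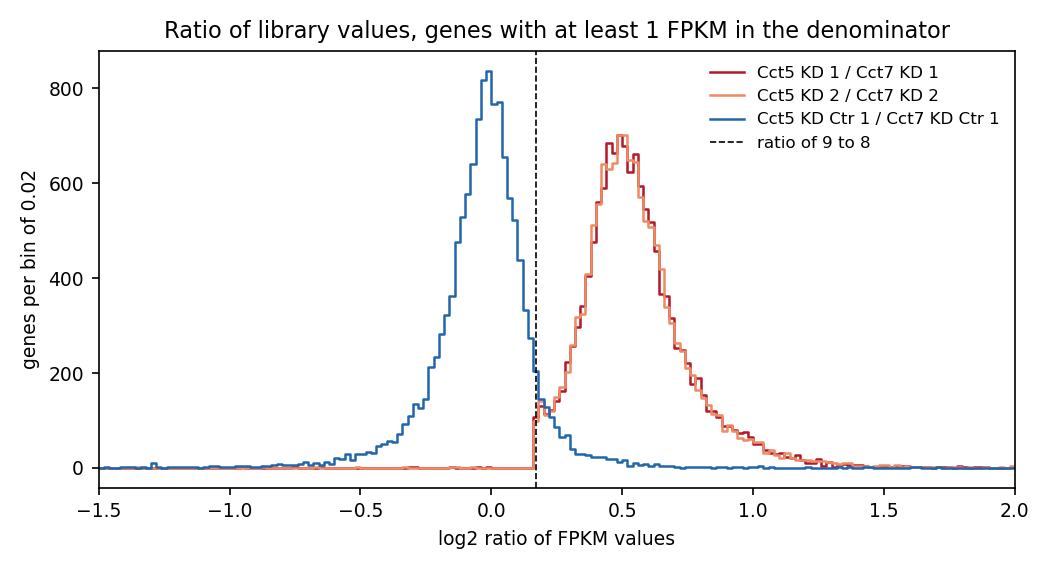
Numbers of genes (y axis, per bin of 0.02) by the log2 ratio of their FPKM values in pairs of libraries (x axis), for Cct5 KD over Cct7 KD of the same replicate number and, as a comparison, for the first controls of both tables. The knockdown pairs stop at the dashed line, a ratio of 9 to 8, while 91.8% of genes in the control pair lie below it.

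The Cct5 KD values were therefore split into Cct7 KD times 9/8 and a remainder of 0 or more, which was formed for 19881 genes. The multiple held 71.3% of the FPKM total of each Cct5 KD library and the remainder 28.7%. Over 14673 genes with at least 1 FPKM, the median gene had 22.1% of its Cct5 KD value in the remainder, and in the middle of the range, from the 10th to the 90th percentile, the share lay between 10.6% and 37.5%. Where whole fragments are counted, low FPKM values times transcript length move in equal steps. In genes with 1 annotated transcript, 99.0% and 99.1% of the remainder's values between 0.5 and 20 steps were whole to within 0.05. The controls reached 99.2% and 99.3%, and Cct5 KD as deposited reached 68.8% and 38.6% at its best step. A further 1143 genes were listed in the table of Cct5 KD but not in that of Cct7 KD. Of their Cct5 KD values, 513 of 517 and 541 of 544 were whole multiples of the remainder's step, against 36.8% and 7.28% for genes in both tables. The sources used here do not say how the values were made. Results are given for Cct5 KD as a whole and for the remainder. The remainder is a part of the Cct5 KD values, and both were set against the same control libraries. For both reasons agreement between them is not independent evidence.

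The step places the FPKM denominators at 54.8 M and 21.2 M fragments in the controls and at 55.9 M and 52.7 M in the remainder. Before scaling, 1 fragment on a 1 kb transcript is thus worth between 0.0179 and 0.0471 FPKM. The scaling described below divides the remainder by 0.383 and 0.387, so a fragment is worth more in its scaled values. No denominator could be placed for Cct5 KD. FPKM summed to 495553 and 496684 in the controls and to 745912 and 744177 in Cct5 KD, 1.502 times as much. Libraries were for this reason scaled by the median of ratios before the test. Levels of Cct5 KD and its controls are printed as deposited and those of the remainder after scaling, while each log2 change is a difference in log2(scaled FPKM + 1), which makes changes of genes near 0 look smaller than they are. The median gene then changed by -0.06 in Cct5 KD and by -0.01 in the remainder. Without scaling these medians were 0.68 and -1.15, and with every library at the same FPKM total 0.15 and -0.16. Directions are thus relative to the median gene, and a gene with a change smaller than these shifts can turn with the scaling. Of the genes that passed the test, 45.6% were higher in Cct5 KD after scaling, 87.3% without it and 60.9% with a common total. In the remainder these shares were 49.4%, 4.39% and 40.3%. Without scaling, members called higher outnumbered those called lower in 38 of 42 gene lists in Cct5 KD, while in the remainder those called lower outnumbered the others in 40 lists, and in 0 did more rise than fall. In Cct5 KD the exceptions were general and naive pluripotency, formative and primed genes and nucleolar ribosome biogenesis, with more members lower, and mesoderm genes, with equal numbers. List counts below are after scaling unless it is said otherwise, and in the remainder a rise of a list is always a rise relative to the median gene. Replicates lay close, with a correlation across genes of 0.997 in the controls, in Cct5 KD and in the remainder.

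Cct5 transcript was low in the knockdown. Cct5 (ENSMUSG00000022234, GRCm38 chromosome 15, 31590800 to 31601804, minus strand, protein coding) stood at 368 and 367 FPKM in the controls and at 70.8 and 73.4 in Cct5 KD, 19.6% of control. The groups did not overlap, and the log2 change after scaling was -3.15 with an SE of 0.0235 (limma adjusted p = 5.0e-08). In the Cct7 libraries it stood at 356 and 360.1 FPKM in the controls and 280.03 and 271 in the knockdown. Cct5 is thus 1 of 15 genes whose Cct5 KD values lay below that multiple of Cct7 KD in both replicates, and no remainder could be formed for it. All 15 had both knockdown values below both controls, at 19.6% to 82.5% of the control mean before scaling. The others include Setd7 and Setdb2, enzymes or relatives of enzymes that methylate lysines, the linker histone gene H1f0, the lamin gene Lmna, the germ cell genes Tex15 and Brdt, and Pphln1, Hcfc2, Phf2, Bcl6, Tspyl4, Snai1 and Trp63. Pphln1, a partner of the HUSH silencing complex, went from 13.1 and 12.9 FPKM in the controls to 3.26 and 2.72, and Setd7 from 4.4001 and 4.67 to 1.25 and 1.08. Of the 15, 9 were abundant enough to test and all 9 fell, against 44.9% of all genes tested. The 15 were picked by low Cct5 KD values, so low levels and falls among them add no support.

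The other CCT subunits were also lower in Cct5 KD after scaling. Any count is read against the background of Cct5 KD, where 82.5% of 13235 genes passed (limma, Benjamini-Hochberg adjusted p under 0.05), 37.6% higher and 44.9% lower. All 9 CCT genes, Cct5 included, passed and fell, with a median log2 change of -0.69, but with the values as deposited 5 rose and 4 fell with a median of 0.10. Cct4 stood at 435 and 430.5 FPKM in the controls and at 296 and 298 in Cct5 KD, lower without any scaling, and changed by -1.37. Cct3 went from 336 and 327 FPKM to 287 and 282 and changed by -1.04. Tcp1, which encodes the alpha subunit, changed least, by -0.20, and was higher without scaling. Cct6b, an alternative subunit found mainly in testis, was scarce at 1.91 and 1.69 FPKM in the controls and 1.35 and 1.27 in the knockdown.

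In the remainder 83.2% of 12993 genes passed, 41.1% higher and 42.1% lower. Of the 8 CCT genes it holds, 5 fell, Cct7 and Tcp1 rose, and Cct6b did not pass. Cct7 stood at 278 and 277 FPKM in the controls, 297 and 299 in Cct5 KD, and 732 and 722 in the scaled remainder, which holds 93.9% of its Cct5 KD value. Both scaled values of the remainder were thus above both controls, with a log2 change of 1.39 (SE 0.0207, limma adjusted p = 3.1e-07). As deposited the remainder of Cct7 was 281 and 279 FPKM, next to its controls, and without scaling the change was 0.013 and did not pass (limma adjusted p = 0.498). Without scaling 0 of the 8 rose and 7 fell. Tcp1 rose by 0.10, a direction that turned with a common FPKM total and without scaling. Cct3 changed by -0.95 and Cct4 by -0.63. For the 13 listed genes of CCT cofactors, prefoldin and phosducin-like proteins that bring clients to the chaperonin, 2 rose and 11 fell in Cct5 KD (median -0.28, and 0.50 without scaling), and 6 rose and 6 fell in the remainder (median 0.00, and -1.30 without scaling). Pfdn2, a prefoldin subunit, went from 65.9 and 67.7 FPKM to 57.2 and 57.3.

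Transcripts of the main folding clients, actin and tubulin, moved in both directions after scaling. Among 22 tested tubulins and tubulin cofactors 8 rose and 12 fell in Cct5 KD, and 8 rose and 13 fell in the remainder. Without scaling 16 rose and 3 fell in Cct5 KD, and 0 rose and 19 of 21 fell in the remainder. For all genes tested the scaled shares were 37.6% higher and 44.9% lower in Cct5 KD, and 41.1% and 42.1% in the remainder. The beta tubulin Tubb4b stood at 261 and 268 FPKM in the controls, 254 and 265 in Cct5 KD and 87.7 and 91.3 in the scaled remainder. Its log2 changes were -0.85 in Cct5 KD, where it did not pass without scaling, and -1.55 in the remainder. Tubb2a moved the other way, from 9.68 and 9.74 FPKM to 56.3 and 58.6, with changes of 1.64 and 1.21. Among 22 genes of the actin cytoskeleton 11 rose and 10 fell in Cct5 KD, and 9 rose and 11 fell in the remainder. Without scaling 18 rose and 2 fell in Cct5 KD, and 3 rose and 17 of 20 fell in the remainder. Actg1, cytoplasmic gamma actin, changed by -0.87, which did not pass without scaling, and by -1.25, while the tropomyosin gene Tpm4 went from 41.5 and 43.2 FPKM in the controls to 263 and 266 and changed by 1.79 and 1.80. Ccn1, a secreted target of the YAP coactivator, rose from 3.41 and 3.48 FPKM to 45.3 and 46.0 in Cct5 KD (2.59), and its scaled remainder was 21.1 and 21.0.

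Most pluripotency genes fell. Of 36 general and naive genes, all tested, 33 fell, only Stat3 rose, and Tfcp2l1 and Dusp6 did not pass in Cct5 KD (median -1.40, and -0.58 without scaling). In the remainder 32 fell, Stat3 and Tfcp2l1 rose, and Dppa5a and Lifr did not pass (median -1.67). Falls of at least 2-fold numbered 23 in Cct5 KD and 26 in the remainder, against 8.52% and 10.3% of all genes tested. Sox2 stood at 348 and 339 FPKM in the controls, 115 and 113 in Cct5 KD and 57.0 and 55.7 in the scaled remainder, and changed by -2.40 and -2.59. Nanog went from 303 and 302 to 98.5 and 94.8, with 50.3 and 49.7 in the scaled remainder. For both genes the knockdown and the remainder lay below both controls, without overlap.

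Pou5f1 differed from its partners. It stood at 459 and 461 FPKM in the controls, 290.3 and 285 in Cct5 KD and 407 and 389.6 in the scaled remainder. Its log2 change of -1.501 in Cct5 KD (SE 0.0236) compares with -0.21 in the remainder (SE 0.0277, limma adjusted p = 6.5e-04) and -2.14 in Cct7 KD against its own control. The remainder's change lay above that of Cct7 KD by 1.94 (SE 0.0393, limma adjusted p = 9.8e-08), while for Sox2 and Nanog this difference was -0.34 and -0.23. The background is wide here too, since 73.9% of 13198 genes passed the test of that difference, 38.5% positive and 35.4% negative, but without scaling only 250 were positive and 11684 negative. The remainder is what is left of Cct5 KD after a multiple of Cct7 KD is taken off, so this is a comparison of derived values. Tdgf1, the Nodal coreceptor Cripto, and the growth factor gene Fgf4 also had positive differences (1.94 and 1.86). Tdgf1 stood at 840.3 and 842 FPKM in the controls and 416 and 414 in the scaled remainder (-1.02, against -2.96 in Cct7 KD), and Fgf4 at 1012 and 996 FPKM in the controls and 203 and 194 in the scaled remainder (-2.33 against -4.19). Klf4, a naive-state factor, went from 22.4 and 21.7 FPKM to 23.5 and 24.5, a change of -0.67 after scaling that was positive without it, and -1.10 in the remainder.

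Formative and primed genes, active in cells that leave the naive state, fell as well. Of 23 tested, 20 fell and Cdh2, Dnmt3l and Etv4 rose in Cct5 KD (median -1.35), and 21 of 22 fell in the remainder, with Etv4 higher (median -1.66). Otx2, the transcription factor that opens formative enhancers, stood at 75.2 and 76.1 FPKM in the controls, 1.63 and 1.65 in Cct5 KD and 0.245 and 0.211 in the scaled remainder. Its mean in Cct5 KD as deposited was 2.17% of control, and the log2 changes were -5.32 and -5.96. Lefty1 and Lefty2, secreted antagonists of Nodal, went from 26.0 and 26.2 FPKM to 1.61 and 1.89 and from 36.6 and 38.2 to 4.02 and 3.801. The ETS factor gene Etv5 changed by -2.22 in Cct5 KD and by -3.29 in the remainder. Dnmt3l, the catalytically inactive cofactor of the de novo DNA methyltransferases, was split. It stood at 93.2 and 95.3 FPKM in the controls, 202 and 203 in Cct5 KD and 38.0 and 35.1 in the scaled remainder, so that it rose by 0.27 in the first and changed by -1.34 in the second. Its partner Dnmt3b fell in both (-2.34 and -3.35).

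**Figure D2:**
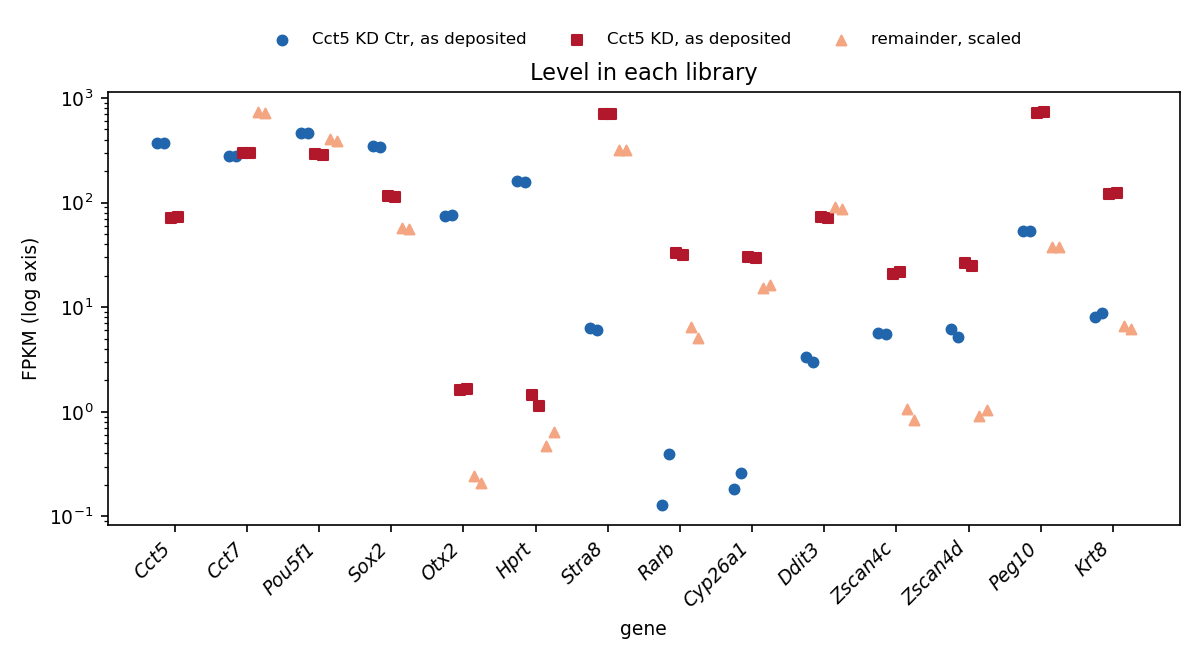
FPKM (log axis) of 14 genes in the controls and in Cct5 KD, as deposited, and in the remainder after scaling, with a point for each of 2 libraries per group; Cct5 has no remainder. Pou5f1 lies closer to its control level in the scaled remainder than in Cct5 KD as deposited, and this rests on the scaling of the remainder. Zscan4c and Zscan4d lie above the control in Cct5 KD and below it in the remainder.

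Markers of the 2-cell-like state were higher in Cct5 KD and lower in the remainder. The list holds 66 names, of which 49 were in the table. With no filter on low values, so that all 49 count, 37 rose and 10 fell in Cct5 KD, against 33.3% and 34% of all genes, with a median log2 change of 0.82. In the remainder 2 of 48 rose and 44 fell, against 33.7% and 35.8% of all genes, with a median of -0.94. Among members abundant enough to test in Cct5 KD, the median had 1.203% of its Cct5 KD value in the remainder. The median gene with at least 1 FPKM in Cct5 KD had 22.1%. Summed over the list, FPKM was 179 and 179.8 in the controls, 641 and 632 in Cct5 KD, and 61.4 and 59.5 in the scaled remainder. In bulk RNA fewer cells of a kind cannot be told apart from less RNA per cell. Many of these genes have near-identical copies, and how reads were shared among copies is not known.

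Zscan4c and Zscan4d are neighbouring members of the Zscan4 cluster on chromosome 7, whose proteins act in telomere upkeep. Zscan4c (GRCm38, 11005745 to 11010547) stood at 5.63 and 5.53 FPKM in the controls, 20.7 and 21.6 in Cct5 KD and 1.06 and 0.838 in the scaled remainder. Its log2 change was 0.97 in Cct5 KD (SE 0.0406) and -1.76 in the remainder (SE 0.0806, limma adjusted p = 6.2e-06). Zscan4d went from 6.15 and 5.16 FPKM in the controls to 26.5 and 24.9 in Cct5 KD, with 0.922 and 1.03 in the scaled remainder. Zfp352, a zinc finger gene switched on at zygotic genome activation, was 0.193 and 0.207 FPKM in the controls, 7.60 and 6.84 in Cct5 KD and 0.0205 and 0.0215 in the scaled remainder. Tdpoz4, a BTB domain gene of the early embryo, went from 0.492 and 0.296 to 12.9 and 12.4, and its scaled remainder was 0.0836 and 0. The deubiquitinase gene Usp17lb went from 5.19 and 5.80 FPKM to 18.1 and 19.2, with 0.508 and 0.408 in the scaled remainder. In each of these 5 genes Cct5 KD lay above both controls and the remainder below them. The remainders of Zfp352 and Tdpoz4 rest on few fragments. Gm20767 and Gm21761 rose by 3.95 and 3.08. Their scaled remainders were 0.718 and 0.583 FPKM and 2.81 and 2.53 FPKM. Pramel6 and Pramel7, which belong to a family also active in naive cells, went against the list. Pramel6 went from 3.55 and 3.39 FPKM to 0.638 and 0.736 and Pramel7 from 6.33 and 6.70 to 2.65 and 2.82, and the remainder of both was 0 in both replicates.

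Genes that restrain or promote the 2-cell-like state mostly fell. Of 37 tested, 32 fell, E2f6, Cbx5 and Smchd1 rose, and Dnmt1 and Nelfa did not pass in Cct5 KD (median -0.52, but 0.32 without scaling). In the remainder 31 fell, 4 rose, the former 3 among them, and Zmym2 and Hdac2 did not pass (median -0.66). Trim28, the corepressor that silences endogenous retroviruses, stood at 1608 and 1648 FPKM in the controls, 933 and 936 in Cct5 KD and 423 and 409.9 in the scaled remainder. Myc went from 9.58 and 9.93 to 2.37 and 2.73, with 0.199 and 0.209 in the scaled remainder. Both genes were lower in every knockdown library than in either control before and after scaling. Rest, a repressor of neuronal genes, changed by -1.96 and -1.82, Lin28a by -1.77 and -1.90, and nucleolin (Ncl) by -1.49 and -1.60. The list mixes restraining and promoting genes.

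Retinoic acid targets were among the largest rises. Retinoic acid binds RAR and RXR receptors, which sit as pairs on direct repeats in the DNA near their target genes. Rarb, itself a receptor, Cyp26a1, the enzyme that clears retinoic acid, and Stra8, the meiotic gatekeeper named for its induction by retinoic acid, moved together. To show what lies before their start sites, the 250 bases before the first base of each RefSeq gene (GRCm38.p6) are given 5′ to 3′ on the gene's strand. Capitals mark a match to 2 copies of the receptor site NGNTCA (N for any base) in the same direction with 5 bases between, searched on both strands. Of 32851 RefSeq promoters of 300 bases, 283 (0.861%) held a match. The stretches lie at chr14:16575477-16575726 (Rarb, minus strand), chr19:37697558-37697807 (Cyp26a1, plus strand) and chr6:34920698-34920947 (Stra8, plus strand).
Rarb: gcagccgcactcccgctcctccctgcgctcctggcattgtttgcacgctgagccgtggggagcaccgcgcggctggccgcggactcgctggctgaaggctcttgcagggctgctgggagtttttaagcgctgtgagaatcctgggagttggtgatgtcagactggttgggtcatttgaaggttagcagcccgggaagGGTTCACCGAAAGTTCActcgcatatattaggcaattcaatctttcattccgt
Cyp26a1: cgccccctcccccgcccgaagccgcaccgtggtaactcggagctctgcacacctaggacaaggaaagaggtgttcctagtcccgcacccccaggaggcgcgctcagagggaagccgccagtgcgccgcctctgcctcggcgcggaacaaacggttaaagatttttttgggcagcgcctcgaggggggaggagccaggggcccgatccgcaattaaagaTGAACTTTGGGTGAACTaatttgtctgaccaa
Stra8: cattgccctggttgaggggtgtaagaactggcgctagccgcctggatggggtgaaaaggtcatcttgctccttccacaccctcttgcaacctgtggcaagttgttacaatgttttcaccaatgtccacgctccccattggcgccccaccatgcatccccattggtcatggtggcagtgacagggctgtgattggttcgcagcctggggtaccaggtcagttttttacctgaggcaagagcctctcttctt
The Rarb match reads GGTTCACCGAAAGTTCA, 53 to 37 bases before the start on the gene's strand. The Cyp26a1 match reads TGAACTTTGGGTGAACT as printed, 32 to 16 bases before the start, with the repeat on the opposite strand. No match to these letters lies in the Stra8 window. A match describes the sequence and is not evidence of binding in these cells.

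Stra8 stood at 6.35 and 6.03 FPKM in the controls, 707 and 705 in Cct5 KD and 318 and 317 in the scaled remainder. Its log2 change was 5.79 in Cct5 KD (SE 0.0298, limma adjusted p = 4.0e-08) and 5.47 in the remainder (SE 0.0315, limma adjusted p = 4.5e-08). Cyp26a1 went from 0.184 and 0.263 FPKM to 30.0 and 29.5, with 15.4 and 16.3 in the scaled remainder, and Rarb from 0.129 and 0.399 to 32.8 and 31.4, with 6.51 and 5.04. For all 3 genes every knockdown and remainder value exceeded both controls. The ranking of the largest rises below, in which all 3 stand, required this of Cct5 KD, so it adds no support there. Cyp26a1 rose by nearly the same amount in Cct5 KD and the remainder (3.86 and 3.78), and Rarb by less in the remainder (3.92 and 2.42). With no filter, 14 of 26 listed genes of retinoic acid signalling rose and 7 fell in Cct5 KD, and 14 rose and 8 fell in the remainder (medians 0.39 and 0.54), against 33.3% higher and 34% lower and 33.7% higher and 35.8% lower of all genes. Without scaling, 6 of the 17 abundant enough to test rose and 9 fell in the remainder (median -0.35). The receptor gene Rara and the corepressor gene Ncor1 were among those that fell in Cct5 KD (-1.04 and -1.03).

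HOX genes, which pattern the body axis and respond to retinoic acid, were also higher after scaling. With no filter 35 of 37 listed HOX genes and cofactors rose and 1 fell in Cct5 KD, and 31 of 34 rose and 1 fell in the remainder (medians 0.89 and 0.73), against 33.3% and 33.7% of all genes higher. Most were scarce. Without scaling, 6 were abundant enough to test in the remainder, of which 3 rose and 3 fell. Cdx1, a regulator of HOX genes, went from 0.0940 and 0.242 FPKM in the controls to 14.5 and 14.5 in Cct5 KD, with 9.60 and 10.4 in the scaled remainder, all above both controls.

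Germline genes moved in both directions, with some of the largest rises among them. With no filter, 27 of 45 rose and 12 fell in Cct5 KD (median 0.61), and 25 of 44 rose and 13 fell in the remainder (median 0.26). Of all genes 33.3% rose and 34% fell in Cct5 KD, and 33.7% and 35.8% in the remainder. Without scaling, 7 of the 39 abundant enough to test rose and 28 fell in the remainder (median -0.67). Dazl, a germ cell RNA-binding protein, stood at 18.7 and 19.4 FPKM in the controls, 466 and 449 in Cct5 KD and 109 and 106 in the scaled remainder. Taf7l, a germ cell subunit of TFIID, went from 2.90 and 2.56 to 155 and 149, with 37.6 and 36.5. Tex13b changed by 4.02 and 2.28. All 3 were above both controls in every knockdown and remainder value. They are among the largest rises ranked below, a ranking that required this of Cct5 KD, so it adds no support there. Prdm1 (Blimp1), which founds the germ cell lineage, fell instead, from 30.5 and 30.7 FPKM to 10.2 and 11.03, with 5.44 and 4.95 in the scaled remainder. The X-linked Xlr3a changed by -2.24 and -2.81. Tex19.1, which restrains transposons, was split, at 57.6 and 56.7 FPKM in the controls, 155 and 156 in Cct5 KD and 17.6 and 16.5 in the scaled remainder (0.61 and -1.69).

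Trophoblast genes, which mark the placental lineage, moved in both directions. With no filter, 11 of 20 listed rose and 4 fell in Cct5 KD (median 0.32), and 5 rose and 11 fell in the remainder (median -0.31), against 33.3% higher and 34% lower, and 33.7% higher and 35.8% lower, of all genes. Peg10, an imprinted gene of retrotransposon origin needed for the placenta, stood at 53.4 and 53.3 FPKM in the controls, 721 and 727 in Cct5 KD and 37.5 and 37.6 in the scaled remainder, which holds 2.00% of its Cct5 KD value. Its log2 change was 2.91 in Cct5 KD and -0.50 in the remainder (SE 0.0255, limma adjusted p = 9.6e-06). Keratin genes of simple epithelia divided. Krt8 stood at 7.98 and 8.85 FPKM in the controls, 120.1 and 123 in Cct5 KD and 6.68 and 6.24 in the scaled remainder, and its partner Krt18 went from 15.2 and 15.4 to 118 and 117, with 10.5 and 10.8 in the scaled remainder. Krt19 was above control in both, going from 22.5 and 22.9 FPKM to 477 and 491, with 85.2 and 92.3. Tfap2c, a trophoblast and germ cell factor, fell in both (-1.30 and -1.133).

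**Figure D3:**
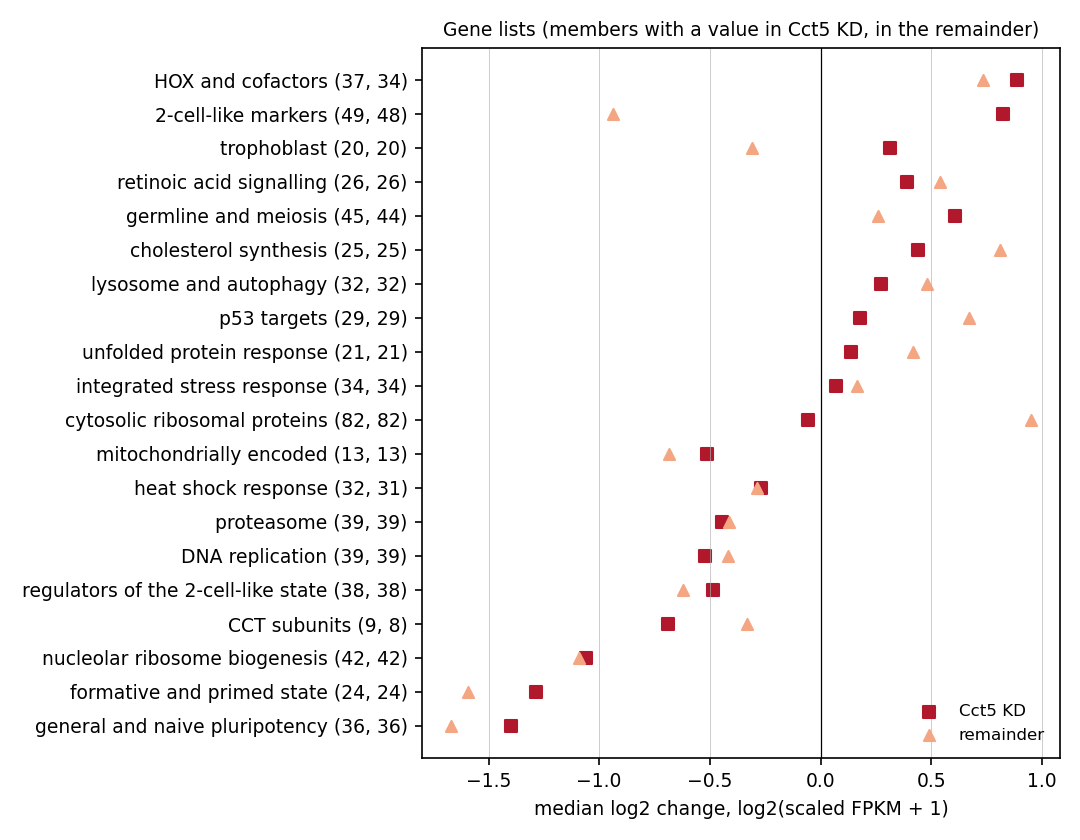
Median log2 change against the controls (x axis) of the members of 20 gene lists in Cct5 KD and in the remainder, after scaling and with no filter on low values; the numbers in brackets count the members with a value in each. For cytosolic ribosomal proteins, 2-cell-like markers and trophoblast genes the remainder lies on the other side of 0 from Cct5 KD, and without scaling the median of the ribosomal proteins is above 0 in Cct5 KD and below 0 in the remainder.

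Cytosolic ribosomal proteins set the remainder apart. Of 82 genes in the table, all but Rpl24 were abundant enough to test, and all 81 rose in it, against 41.1% of all genes, with a median log2 change of 0.95 (range 0.15 to 1.59). With a common FPKM total 79 rose and 0 fell (median 0.79). Without scaling 1 of 80 rose and 74 fell, beside 501 higher and 10904 lower of all genes. The median was then -0.42, above that of all genes (-1.15). In Cct5 KD 19 rose, 37 fell and 25 did not pass (median -0.06, but 0.18 with a common total and 0.77 without scaling), and in Cct7 KD against its own control 1 rose and 76 fell of 81, where 37.7% and 43.5% of all genes rose and fell. The difference between the changes of the remainder and of Cct7 KD was positive and passed the test in all 81, and in 74 it was at least 2-fold, against 38.5% and 9.19% of all genes. These are counts after scaling. Without it only 250 differences were positive and 11684 negative over all genes, and the count for this list is not given here. As a share of all FPKM these genes made up 15.9% in each control library, 17.4% and 17.3% in Cct5 KD, 26.3% in each remainder and 13.8% and 13.6% in Cct7 KD. Ribosomal protein genes have many processed pseudogenes, so single members are less certain than the sum.

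Rps27, a small-subunit protein, stood at 953 and 912 FPKM in the controls, 2386 and 2319.9 in Cct5 KD and 2812 and 2789 in the scaled remainder, with changes of 0.51 and 1.59. Rpl23a, of the large subunit, went from 3385 and 3375 FPKM to 3985 and 3842 in Cct5 KD as deposited, with 4967 and 4805 in the scaled remainder. Its change in Cct5 KD was negative after scaling and 0.21 without it. In both genes all scaled values of the remainder were above both controls. Rpl27 showed the smallest rise there, 0.15, at 1081 and 1113 FPKM in the controls and 1257 and 1174 in the scaled remainder, and this direction turned with a common total and without scaling.

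In the remainder after scaling, genes for making ribosomes moved the other way from the ribosomal proteins, while without scaling the medians of both lists were below 0 (-0.42 for ribosomal proteins and -2.39 for biogenesis). Of 42 nucleolar ribosome biogenesis genes, all tested, 41 fell and only Dkc1 rose in Cct5 KD (median -1.06, but -0.26 without scaling, with 11 higher and 27 lower), and 37 fell, Dkc1 rose and 4 (Nob1, Taf1d, Npm3 and Polr1c) did not pass in the remainder (median -1.09). Nhp2, a protein of box H/ACA particles, stood at 261 and 259 FPKM in the controls, 102 and 106 in Cct5 KD and 60.4 and 59.1 in the scaled remainder. Mybbp1a changed by -1.82 and -1.66, Ddx18 by -1.77 and -1.64, and Nolc1 by -1.52 and -1.96. Dkc1, the pseudouridine synthase of the same particles as Nhp2, went from 112 and 113 FPKM to 261 and 258, with 274 and 279.7. Mycn, the MYC gene of early embryonic cells, went from 72.5 and 73.9 FPKM to 6.03 and 6.44, with 4.39 and 4.68 in the scaled remainder.

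**Figure D4:**
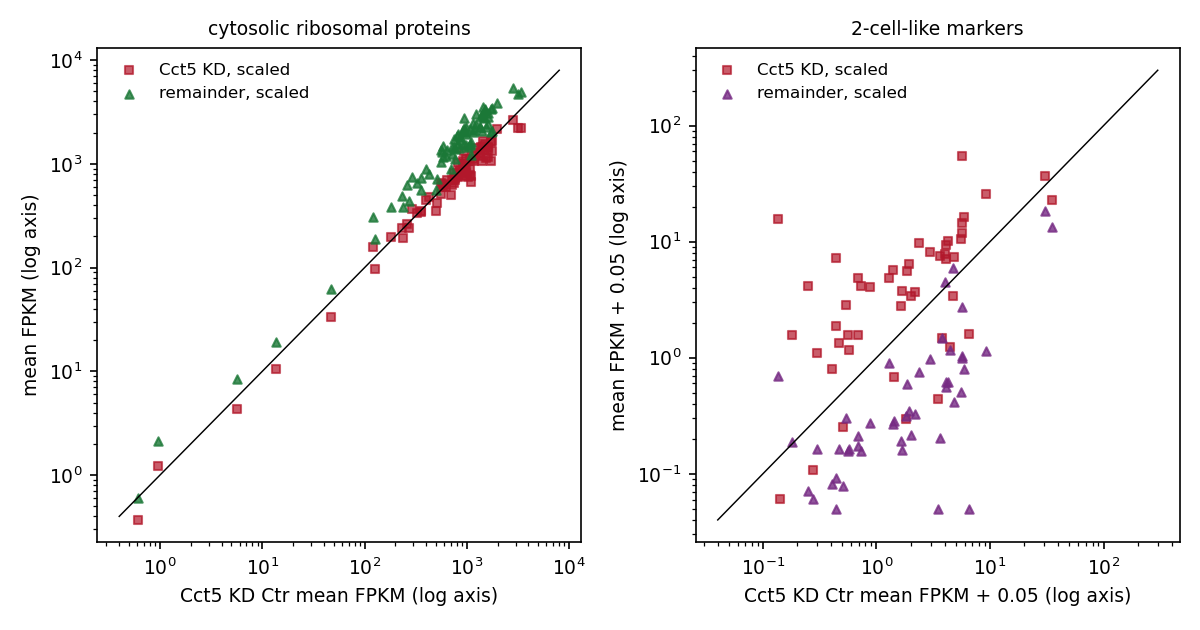
Mean FPKM in the knockdown or the remainder (y axis, log), each of 2 libraries scaled by the median of ratios, against the mean of 2 control libraries (x axis, log) for cytosolic ribosomal proteins and 2-cell-like markers, the latter with 0.05 added; points on the line are equal to control. Most ribosomal protein genes lie near the line in Cct5 KD and above it in the remainder, a side that turns without scaling, and most 2-cell-like markers lie above it in Cct5 KD and below it in the remainder.

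Stress responses showed a few strong genes within lists that were otherwise spread. Of all genes tested, 37.6% rose and 44.9% fell in Cct5 KD after scaling, and 41.1% and 42.1% in the remainder. The scaled list counts in this and the following paragraphs are read beside these shares, and several lie near them. In the integrated stress response, which slows translation and induces ATF4 targets, 16 of 33 genes rose and 13 fell in Cct5 KD, and 18 of 32 rose and 10 fell in the remainder (medians 0.05 and 0.18, the latter -1.26 without scaling). Ddit3 (CHOP), its proapoptotic factor, stood at 3.37 and 2.96 FPKM in the controls, 73.1 and 72.0 in Cct5 KD and 91.0 and 87.0 in the scaled remainder. The change of 4.44 in the remainder was larger than that of 2.56 in Cct7 KD, by 1.88 (SE 0.0721, limma adjusted p = 5.9e-07). Atf3 and Chac1, partners of the same response, rose by 2.57 and 1.65 in Cct5 KD and by less in the remainder, 1.41 and 0.86. Slc7a3, a transporter of basic amino acids, fell in both (-1.73 and -2.23).

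For the unfolded protein response of the endoplasmic reticulum, 13 of 21 genes rose and 4 fell in Cct5 KD, and 15 rose and 2 fell in the remainder (medians 0.14 and 0.42, the latter -0.87 without scaling). Hspa5 (BiP), its main chaperone, stood at 114 and 111 FPKM in the controls, 351 and 340.3 in Cct5 KD and 224 and 217 in the scaled remainder. Dnajc3 rose by 1.63 and 1.80, Herpud1 by 1.68 and 1.67. In the heat shock list 10 of 30 rose and 18 fell in Cct5 KD, and 6 of 31 rose and 20 fell in the remainder (medians -0.38 and -0.29, the former 0.44 without scaling). Hspd1, the mitochondrial chaperonin, changed by -1.24 and -1.47, and Hspa4, a nucleotide exchange factor of HSP70, by -1.10 and -1.62.

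Among p53 targets 18 of 29 rose and 10 fell in Cct5 KD, and 21 rose and 6 fell in the remainder (medians 0.18 and 0.67, the latter -0.65 without scaling). Trp53 itself went from 67.3 and 66.5 FPKM in the controls to 254 and 259 in Cct5 KD, with 192 and 203 in the scaled remainder. Cdkn1a (p21), the cell cycle inhibitor, went from 82.7 and 82.7 FPKM to 257 and 265, with 195 and 197. Pmaip1 (Noxa), a promoter of cell death, went from 9.43 and 9.74 to 74.7 and 74.8, with 51.8 and 54.1. For these 3 genes all knockdown and scaled remainder values exceeded both controls, but without scaling the remainder of Cdkn1a changed by -0.13. Mdm4, an inhibitor of p53, fell in both (-1.66 and -0.68). In the list of cell cycle genes 8 of 32 rose and 22 fell in Cct5 KD (median -0.35, but 0.45 without scaling), with cyclin D1 (Ccnd1) from 38.9 and 40.9 FPKM to 14.9 and 15.0. In that of DNA replication 4 of 39 rose and 31 fell (median -0.52, but 0.30 without scaling).

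Of 24 tested cholesterol synthesis genes 22 rose in Cct5 KD, Mvd fell and Fdft1 did not pass (median 0.45). In the remainder 23 of 25 rose, Mvd fell and 1 did not pass (median 0.81, but -0.51 without scaling). Msmo1, a sterol demethylase, stood at 78.5 and 73.4 FPKM in the controls, 274 and 272 in Cct5 KD and 232 and 229 in the scaled remainder. Stard4, a sterol carrier, changed by 1.21 and 1.68. Among 29 glycolysis and hypoxia genes 17 rose and 11 fell in Cct5 KD and 19 rose and 8 fell in the remainder (medians 0.25 and 0.35, the latter -1.01 without scaling). Vegfa, the angiogenic factor induced by hypoxia, went from 16.2 and 16.6 FPKM to 113 and 112, with 71.1 and 71.6, and P4ha1, a collagen prolyl hydroxylase, from 25.4 and 24.5 to 174 and 176, with 109.9 and 109. Of 32 lysosome and autophagy genes 21 rose and 7 fell in Cct5 KD, and 21 rose and 8 fell in the remainder (medians 0.27 and 0.48, the latter -0.79 without scaling). Cathepsin B (Ctsb) went from 17.2 and 17.9 FPKM to 93.1 and 92.1, with 92.0 and 88.2 in the scaled remainder. Of 39 proteasome genes 32 fell and 1 rose in Cct5 KD, and 31 fell and 5 rose in the remainder (medians -0.45 and -0.42, the former 0.37 without scaling). Srxn1, an NRF2 target that repairs peroxiredoxins, was 4.42 and 4.44 FPKM in the controls and 48.2 and 45.7 in Cct5 KD, and 5.55 and 5.20 in the scaled remainder, which held 4.41% of its value.

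In the list of interferon and MHC class I genes, of 33 in the table, many were too scarce to test. Of 21 tested, 6 rose and 13 fell in Cct5 KD, and 9 of 22 rose and 10 fell in the remainder. Without scaling 12 of 23 rose and 9 fell in Cct5 KD, and 5 of 21 rose and 15 fell in the remainder. The class I genes H2-D1 and H2-Bl, the latter annotated as a pseudogene, went from 5.59 and 5.49 FPKM to 35.3 and 34.7 and from 2.42 and 2.57 to 82.98 and 76.7. Ifitm1 and Ifitm3, interferon-inducible membrane proteins that stem cells express without interferon, went from 166 and 161 to 7.93 and 9.30 and from 119 and 126 to 30.6 and 32.2. In all 4 genes the scaled remainder lay on the same side of both controls as Cct5 KD, but without scaling the remainder of H2-D1 changed by -0.0394.

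Gene models named Gm or Rik, clone names and entries with a pseudogene suffix were left out of the rankings that follow, as were genes whose mean lay under 2 FPKM. Rises and falls also had to pass the test, with both libraries of Cct5 KD or of the remainder on the same side of both controls after scaling. By that rule the 10 largest rises in Cct5 KD were Stra8, Csn3, Taf7l, Tinagl1, Mid1, Tex13b, Rarb, Cyp26a1, H2-Bl and Dazl. Csn3, kappa casein, went from 0.0369 and 0 FPKM to 70.4 and 72.1, with 6.15 and 6.51 in the scaled remainder and 3.42% of its value there. Mid1, an X-linked ubiquitin ligase bound to microtubules, went from 0.137 and 0.146 to 33.8 and 31.3, with 40.8 and 35.7, and was second to Stra8 among such genes in the remainder. Tinagl1, a matricellular protein, changed by 4.39 and 3.38. By the same rule the remainder's 10 largest rises were Stra8, Mid1, H2-Bl, Ddit3, Prph, Cyp26a1, mt-Tw, Tinagl1, Taf7l and Tceal3. Prph, the intermediate filament peripherin, stood at 1.72 and 1.54 FPKM in the controls and 40.6 and 42.3 in the scaled remainder.

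The 10 largest falls in Cct5 KD by this rule were Hprt, Otx2, Ifitm1, Tdh, Dppa3, Mycn, Platr10, Lefty1, Car4 and Lefty2. Hprt (ENSMUSG00000025630, GRCm38 chromosome X, 52988137 to 53021659, plus strand), the purine salvage enzyme that is inactive in a widely used derivative of E14, stood at 163 and 159 FPKM in the controls, 1.44 and 1.128 in Cct5 KD and 0.469 and 0.645 in the scaled remainder. It was the largest fall of all, -6.55 (SE 0.0553) and -6.70 (SE 0.0603). Its levels were 161 and 161 FPKM in the controls of the Cct7 table and 1.11998 and 0.781 in Cct7 KD. The level of Hprt thus separates knockdown from control libraries in both tables. The sources used here do not say whether the knockdown and control lines came from one parental line, so a difference between the lines that was there before the knockdown cannot be told apart from its effect in any comparison above. Tdh, the threonine dehydrogenase on which mouse stem cells depend, went from 138 and 140.2 FPKM to 11.4 and 12.3, with 7.62 and 8.06, and Dppa3 (Stella) from 75.0 and 71.4 to 5.32 and 5.68, with 1.01 and 1.94. Gap43, a growth cone protein, was also among the 10 largest falls in the remainder, from 23.7 and 23.2 FPKM in the controls to 0.688 and 0.826 in the scaled remainder.

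The remainder and Cct7 KD do not share control libraries, and 12630 genes were tested in both. Both rose in 2896 genes (22.9%) and both fell in 3735 (29.6%), the remainder rose while Cct7 KD fell in 1262 (9.99%), and it fell while Cct7 KD rose in 850 (6.73%). Where each change was at least 2-fold, both rose in 410 (3.25%) and both fell in 607 (4.81%), and they went opposite ways in 16 (0.127%) and 33 (0.261%). Apart from Cct7, the largest positive differences that passed the test were those of Snord98, Mir7061, Apela, Tnni3, Ldhb, Zfp773 and Ndrg2. Names and mean levels were limited as above, but separation from the controls was not required. Snord98, a small nucleolar RNA entry, had uneven controls of 8.15 and 1.45 FPKM, and the SE of its difference was 0.738. Ldhb, a lactate dehydrogenase subunit, stood at 157 and 151 FPKM in the controls, 153 and 151 in Cct5 KD and 262 and 259.5 in the scaled remainder, changing by 0.76 in the remainder and by -2.14 in Cct7 KD. Apela, a secreted peptide of stem cells, went from 25.3 and 22.3 FPKM to 8.14 and 7.99, with 18.3 and 17.8 in the scaled remainder, changing by -0.38 in the remainder and by -3.84 in Cct7 KD. Large negative differences were those of Cyp1a1, Peg10, Usp17lb, Krt8, Tcstv3, Zscan4d and Tdpoz4. Cyp1a1, the detoxifying enzyme induced by the aryl hydrocarbon receptor, was 0.345 and 0.262 FPKM in the controls, 19.8 and 19.4 in Cct5 KD and 0.155 and 0.0907 in the scaled remainder. Cct5 KD lay above both controls and the remainder below them.

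**Figure D5:**
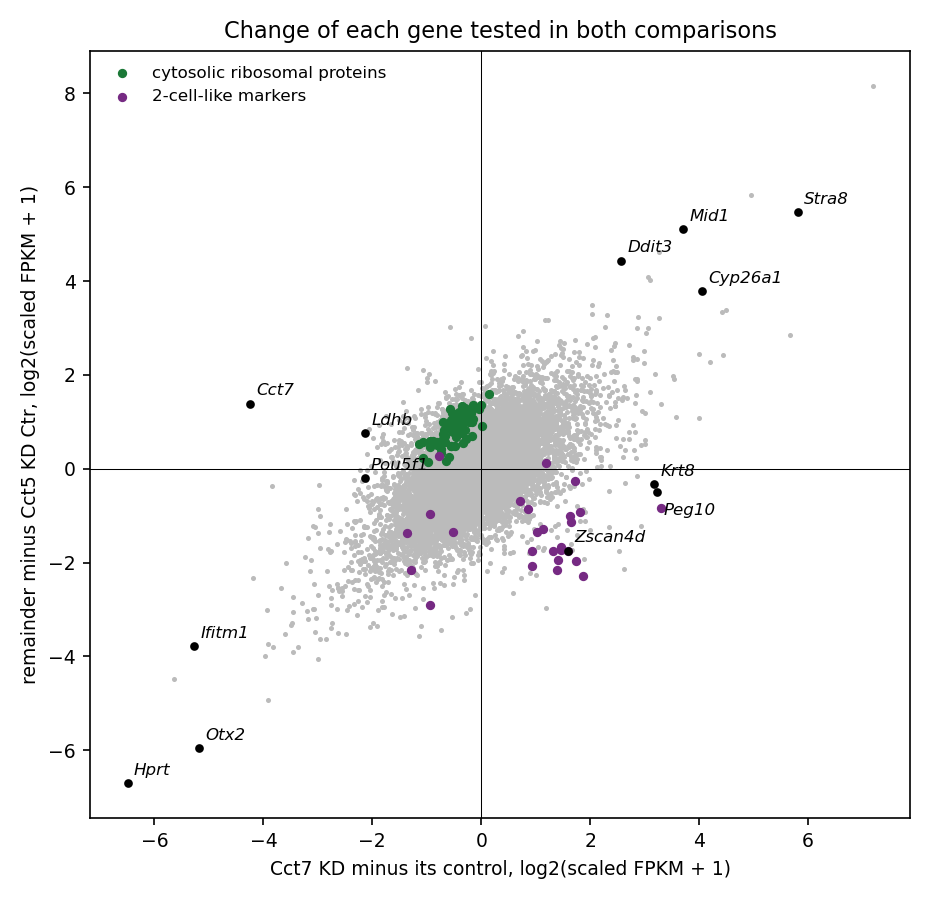
Log2 change of each gene tested in both, in the remainder against Cct5 KD Ctr (y axis) and in Cct7 KD against its own control (x axis), after scaling; a point is a gene, with ribosomal proteins and 2-cell-like markers coloured. Ribosomal protein genes lie above 0 on the y axis, which turns without scaling, most 2-cell-like markers lie at the lower right, and Hprt, Otx2 and Stra8 lie at the ends of the diagonal.

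Markers of the labelled cell type were present. All 9 embryonic stem cell markers were listed, and their FPKM summed to 5670.3 and 5606 in the controls, 2404 and 2409 in Cct5 KD and 3112 and 3065 in the scaled remainder. Of 10 feeder fibroblast markers 6 were listed, with sums of 10.8 and 11.4 FPKM in the controls, 22.9 and 23.9 in Cct5 KD and 11.6 and 11.9 in the scaled remainder. Col1a2 and Col3a1, both collagen genes, were under 1 FPKM in all 4 libraries, and Postn, Lum, Dcn and Twist2 were not in the table. The 9 of 10 trophoblast markers in the table summed to 61.6 and 63.4 FPKM in the controls, 312 and 323 in Cct5 KD and 40.1 and 40.9 in the scaled remainder, with Elf5 and Gata3 under 1 FPKM and Cdx2 not in the table. Of 9 primitive endoderm markers Sox17, Sox7 and Foxa2 were under 1 FPKM, and the sums were 23.7 and 23.7 in the controls and 42.4 and 43.3 in Cct5 KD. The 5 neural markers summed to 23.2 and 23.9 FPKM in the controls and 31.5 and 31.8 in Cct5 KD. Sums of the 4 mesoderm markers in the table were 2.30 and 2.38 in the controls and 2.26 and 2.22 in Cct5 KD. All sums of Cct5 KD here are as deposited, and scaling divides them by 1.77 and 1.79. After that division the neural sums lie below both controls and the primitive endoderm sums close to them. Neither list thus shows a clear rise relative to the median gene. In the scaled remainder the neural, primitive endoderm and mesoderm sums were below both controls. The part of these markers in the results was not tested.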

How the data were processed

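The authors deposited FPKM per gene in a table for each knockdown, each with 2 knockdown and 2 control libraries. The submitters' processing notes name HTSeq and mm10, and other tools are not given in these sources. Of 21055 entries, 16 under 8 repeated IDs were left out, and 50 IDs carry no symbol. Gene positions are those of GENCODE for GRCm38 (mm10), and promoters are from RefSeq. Libraries were scaled by the median of ratios to the controls (factors 1.77 and 1.79 for Cct5 KD, 0.383 and 0.387 for the remainder). Genes with a mean of at least 1 scaled FPKM were tested on log2(FPKM + 1) with limma 3.58.1 in R 4.3.3 (mean trend, Benjamini-Hochberg adjustment, threshold 0.05, no minimum fold). The difference was an interaction term over 8 columns. The fits were run on simulated libraries in which few genes were changed, unlike these data. For Cct5 KD they called 24% of planted log2 changes of 0.25 and 84% of those of 1. For the difference these shares were 14% and 86%. Named genes were the CCT subunits, a few fixed genes, the 10 largest rises and falls per comparison with a mean of at least 2 FPKM, the 8 largest differences per direction, 8 genes per direction with opposite changes in the remainder and Cct7 KD, and the list members with the smallest p. List members named as exceptions to a count were chosen after their values were seen. The members and lists were chosen with earlier results of these data known. Some genes that these rules select, among them some of the 15 below the multiple, are not reported here. Alternatives were the scaling, the pseudocount, the filter, a minimum fold, the replicate block, a fit of all 8 libraries and each library left out. Same-numbered knockdown and control libraries did not deviate together (correlation -0.008 for Cct5 KD and -0.126 for the remainder), so the numbers were not taken as pairs. Same-numbered libraries of Cct5 KD and Cct7 KD did (correlation 0.925), so the spread between the Cct5 KD libraries largely follows that between the Cct7 KD libraries. Depth of Cct5 KD is unknown, and no interval is given that needs it.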

Additional observations from a re-analysis of the deposited data

Results flagged for a closer look

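Described here are 15 of the genes in which the remainder and Cct7 KD moved in opposite directions against their own controls. These 15 were taken from the genes called in opposite ways in both (1262 and 850 by direction) with the largest smaller change. The difference between the changes is an interaction term of the limma fit. Since the choice of genes fixes that it is far from 0, its test adds no support, and the values are a description. Cct7 is the hairpin's own target in the Cct7 knockdown. The remainder was formed by taking a multiple of Cct7 KD off Cct5 KD.

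The difference of Cct7 was 5.63, with Cct7 at 269 and 280.1 FPKM in the controls of its table and 14.4 and 17.8 in Cct7 KD. For the other genes that rose in the remainder and fell in Cct7 KD the differences were 3.52 for the microRNA entry Mir7061, 2.56 for Mir1968, 2.63 for the Ras regulator Rasa4, 2.86 for the zinc finger gene Zfp773, 2.37 for the meiotic gene Cntd1, 2.42 for the antisense transcript Rab26os, and 2.57 for the cilia assembly gene Dnaaf3. Rasa4 stood at 6.13 and 6.48 FPKM in the controls, 8.88 and 9.35 in Cct5 KD and 15.9 and 16.6 in the scaled remainder. MicroRNA entries in a library of long transcripts cover short stretches of host genes, and their values rest on few bases.

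Among genes that fell in the remainder and rose in Cct7 KD were members of the 2-cell-like list. The difference was -3.35 for Zscan4d, -3.14 for Zscan4e, -3.08 for Zscan4c and -3.55 for Usp17lb. The others were -2.84 for Scml2, an X-linked Polycomb relative of germ cells, -2.84 for Tex19.1 and -2.57 for the zinc finger gene Zfp936. Scml2 stood at 14.7 and 14.8 FPKM in the controls, 59.3 and 58.3 in Cct5 KD and 5.03 and 4.55 in the scaled remainder.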

How the results depend on the processing

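The choice of scaling moved the counts most. Without scaling 11057 genes were higher and 1605 lower in Cct5 KD, 501 higher and 10904 lower in the remainder, and 250 positive and 11684 negative in the difference. With a common FPKM total the difference gave 2532 and 7843. A minimum change of 2-fold left 1025 higher and 1127 lower in Cct5 KD, 1218 and 1342 in the remainder, and 1213 and 960 in the difference, and a mean of at least 5 FPKM left 2924 higher in Cct5 KD and 3066 negative differences, since fewer genes qualify.

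Leaving out 1 library at a time gave 4471 to 5000 genes higher and 5581 to 5730 lower in Cct5 KD, 5085 to 5125 and 4954 to 5365 in the remainder, and 4823 to 4985 and 4312 to 4477 in the difference. Among named genes this took the call from Rab26os (without Cct5 KD 1) in Cct5 KD, from Dnmt1 in the remainder (without either Cct5 KD library) and from the difference of Cyp26a1 (without Cct5 KD Ctr 2, Cct5 KD 1, Cct7 KD Ctr 1 or Cct7 KD 1), with no change of direction. The lone library of a group is then assumed to vary like the others. With the replicate number as a block, which the labels do not show to mark pairs, the counts were 4983 and 5932, 5310 and 5441, and 5063 and 4665. A crossed pairing, added after seeing the data, gave 5364 and 5483 in the remainder. A fit of all 8 libraries, a pseudocount of 0.1 and no filter on low values changed no direction of a named gene.

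Named genes changed direction only with the scaling, among the alternatives run. Without scaling the Cct5 KD changes became 0.10 for Cct7, 0.27 for Cdh1, 0.51 for Cntd1, 0.28 for Dnaaf3, 0.54 for Hdac2, 0.12 for Klf4, 0.18 for Mir1968, 0.0337 for Mvd, 0.19 for Nob1, 0.0142 for Npm3, 0.57 for Polr1c, 0.35 for Rab26os, 0.47 for Rasa4, 0.21 for Rpl23a, 0.11 for Rpl27, 0.34 for Taf1d, 0.63 for Tcp1, 0.43 for Zmym2 and 0.24 for mt-Co1. Those of the remainder became -0.26 for Bmi1, -0.84 for Cbx5, -0.13 for Cdkn1a, -0.11 for Chac1, -0.14 for Cntd1, -0.0806 for Dkc1, -0.16 for Dnaaf3, -0.60 for E2f6, -1.01 for Etv4, -0.64 for Fdft1, -0.0394 for H2-D1, -0.40 for Hspa5, -0.61 for Ldhb, -0.13 for Mir1968, -0.66 for Ndrg2, -0.10 for Phc2, -0.23 for Rab26os, -0.0108 for Rasa4, -0.85 for Rpl23a, -1.23 for Rpl27, -1.02 for Smchd1, -0.82 for Srxn1, -0.83 for Stat3, -1.27 for Tcp1, -0.75 for Tfcp2l1, -0.40 for Tnni3, -0.0794 for Tubb2a and -1.25 for mt-Co1. With a common total the Cct5 KD changes were 0.0403 for Tcp1, and those of the remainder -0.0176 for Rpl27, -0.0609 for Tcp1 and -0.0345 for mt-Co1. Without scaling the call was lost, with no change of direction, for Actg1, Ldhb, Lifr, Ndrg2, Tnni3 and Tubb4b in Cct5 KD and for Cct7 and Mbd2 in the remainder. These shifts follow from the scaling factors, which move every gene of a library alike. Which scaling matches the RNA content of the cells cannot be told from FPKM. The shallower control library, at 0.0471 FPKM for 1 fragment on a 1 kb transcript, limits what can be said of genes near 0. So does the scaled remainder, where 0.0179 and 0.0190 FPKM for such a fragment are divided by 0.383 and 0.387.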

Other observations

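Other gene lists held single strong members beside small medians. Of 33 tested genes of Polycomb complexes, which place repressive marks on developmental genes, 24 fell and 8 rose in Cct5 KD, and 21 fell and 9 rose in the remainder. Without scaling 7 fell and 24 rose in Cct5 KD (median 0.35), and 32 fell and 0 rose in the remainder. Scaled counts here and below are read beside all genes tested, 37.6% higher and 44.9% lower in Cct5 KD, and 41.1% and 42.1% in the remainder. Phc1, a component of the canonical PRC1 complex, went from 167 and 169 FPKM to 48.8 and 49.6, with 51.7 and 51.3 in the scaled remainder, while its relative Phc2 went from 2.24 and 2.37 to 15.1 and 15.9, with 5.40 and 5.40. The PRC1 component Bmi1 rose along with Phc2 (1.39 in Cct5 KD and 0.77 in the remainder), and Suz12, of PRC2, fell (-0.92 and -0.70). Among epithelial junction genes Jup, plakoglobin, and the splicing factor gene Esrp1 fell (-2.01 and -2.63 in Cct5 KD, -2.34 and -2.18 in the remainder). The desmosomal cadherin gene Dsc2 rose, from 0.963 and 0.875 FPKM to 20.3 and 20.5. E-cadherin (Cdh1) fell after scaling in Cct5 KD (-0.55), while its change in the remainder did not pass the test (limma adjusted p = 0.85).

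In the DNA methylation list Tet1, which oxidises 5-methylcytosine, fell (-1.89 and -1.73) and the methyl-binding gene Mbd2 rose (1.63 and 1.29). Of 13 mitochondrially encoded transcripts 11 fell in Cct5 KD after scaling and 0 rose, and 9 fell and mt-Co1 rose in the remainder. Without scaling 6 rose and 1 fell in Cct5 KD (median 0.29), and all 13 fell in the remainder. Of 43 nuclear genes of the chain 24 fell and 8 rose in Cct5 KD (median -0.14, but 0.67 without scaling), and 27 rose and 13 fell in the remainder (median 0.21, but -1.16 without scaling). The iron carrier transferrin (Trf) stood at 2.35 and 2.58 FPKM in the controls, 12.6 and 12.9 in Cct5 KD and 15.4 and 15.1 in the scaled remainder. Phlda2, an imprinted gene that limits placental growth, fell from 34.2 and 36.8 FPKM to 11.2 and 11.2, with 6.70 and 6.72, and the imprinted gene Nnat rose from 7.29 and 7.19 to 68.2 and 66.6, with 21.7 and 24.1. No explanation of these values was tested.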
